A study of Eriocheir sinensis with 6 samples.

Results

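The genes described here lie in 2 windows of chromosome CM024166.1 of the Chinese mitten crab, Eriocheir sinensis, and hold 2 stretches of neighbouring genes whose RNA was far higher in muscle after the molt than before it. The members are the listed genes whose IDs begin with evm.TU.CM024166.1 and end in an order number from 150 to 190 or from 310 to 340. They number 47 of the 18729 genes in the deposited table, 23 in the former window and 24 in the latter. The first stretch runs from evm.TU.CM024166.1.163 to evm.TU.CM024166.1.171 and has 6 listed genes, and the second runs from evm.TU.CM024166.1.321 to evm.TU.CM024166.1.327 and has 5. Both windows were chosen by the difference in FPKM between post-molt and pre-molt muscle in these same libraries. Every stage difference below is therefore a description that supports nothing beyond itself, and the fit across all genes serves only for fold changes with their SE and for counts of calls.

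Muscle RNA was sequenced from healthy juvenile crabs in 2 groups of 3 libraries, post-molt (the A stages, after the old shell is shed) and pre-molt (the D stages, before it). Per the labels the crabs averaged 8.41 ± 1.47 g, the same figure for every library of both groups, so weights of the sequenced animals were not given. They were kept at 20 ± 1 °C, with no treatment named. The methods describe walking-leg muscle with 1 crab behind each library. Age and strain were not stated in the sources used here, and all members are called by their IDs because the files give them no names. No gene with a known muscle role could be looked up, so the labelled tissue was not checked against its markers, and the part of other cell types in any difference was not tested. In such bulk samples, fewer cells of a type and less RNA per cell cannot be told apart.

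Crabs grow by shedding the exoskeleton in a cycle driven by ecdysteroid hormones. Leg and claw muscle of decapods is partly broken down before the shell is shed, so that the limb can be drawn out of it. The muscle is rebuilt afterwards. The new cuticle is laid down by the epidermis that lies against the muscle, and it hardens after the old shell is shed. The members carry IDs of the form given by EVidenceModeler, a program that merges several lines of evidence into 1 predicted gene model per locus and numbers the models along each chromosome. Neighbours in the sections below are neighbours by that number. Their distances in bases and their sequences were not analysed here, and no role is given to any of them.

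FPKM counts fragments per kilobase of gene length, scaled by a library size, so levels of different genes can be compared on it. The recovered totals behind the values were 4168743 to 5117141 fragments in the post-molt and 5810059 to 6768298 in the pre-molt libraries. The library size that the deposited FPKM used was 0.280 to 0.344 of that total for post-molt libraries and 0.633 to 0.819 for pre-molt libraries, and the rule behind it was not stated. With the deposited library sizes, the summed FPKM reached 2772125 to 3753646 per post-molt library but 1115974 to 1463554 per pre-molt library. Shares of that sum and ratios of FPKM therefore answer different questions. Genes are listed only if they reached 1.00 FPKM in some library, and of the order numbers in the windows 18 of 41 and 7 of 31 were not listed, so they were not analysed here. Of these, 3 lay inside the first stretch and 2 inside the second.

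The first stretch was very abundant after the molt. Its 6 listed genes summed to 294397, 245943 and 173229 FPKM in post-molt replicates 1, 2 and 3, and to 347, 639.8 and 374 FPKM in pre-molt replicates 1, 2 and 3. The post-molt mean was 237857 ± 60987 FPKM and the pre-molt mean 454 ± 162 FPKM (SD, n = 3), a ratio of 524. Every post-molt library lay far above every pre-molt library. At a common FPKM sum the ratio was 219, because post-molt libraries summed to more FPKM, and as a share of all recovered fragments it was 224.

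As a share of each library's summed FPKM, these 6 genes made up 10.6%, 7.19% and 4.61% in post-molt replicates 1, 2 and 3, a mean of 7.47% ± 3.01 (SD, n = 3). In pre-molt replicates 1, 2 and 3 they held 0.0252%, 0.0437% and 0.0335%, a mean of 0.0341% ± 0.00927. Counted as whole fragments rather than per kilobase, they took 6.15%, 3.91% and 2.67% of all fragments in the post-molt libraries, or 592082 fragments in all, against 3476 fragments in the 3 pre-molt libraries. The share by fragments is smaller than the share by FPKM, and the genes of the stretch are short, as given further on.

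**Figure D1:**
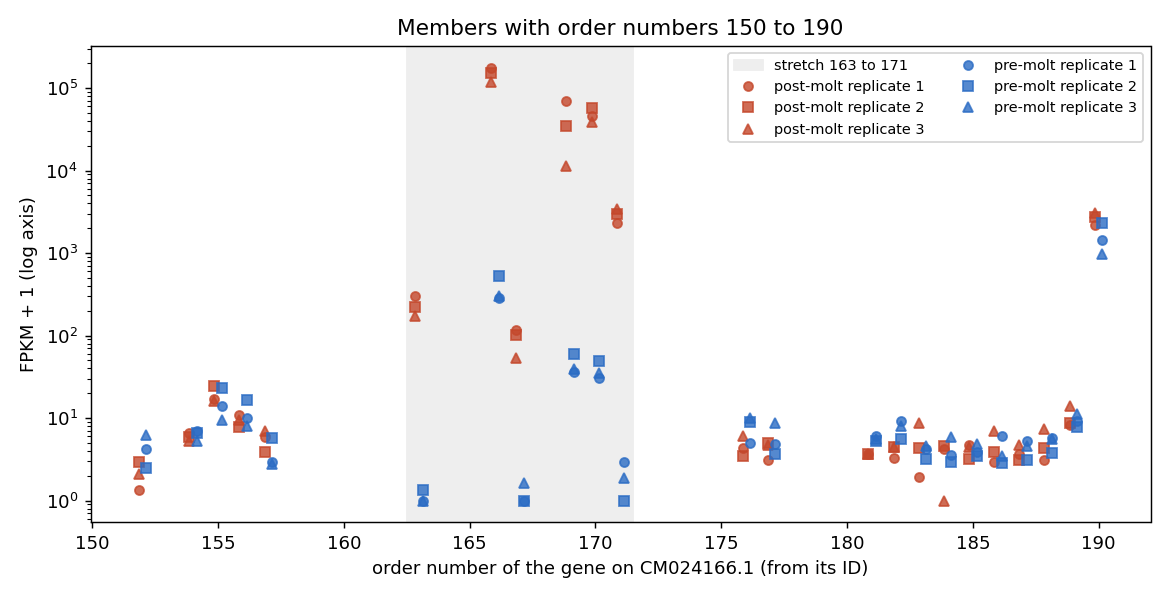
FPKM + 1 on a log axis for each listed gene with order numbers 150 to 190, plotted by its order number, with 1 point per library (orange, post-molt; blue, pre-molt; shapes give the replicate). Inside the grey stretch the post-molt points stand far above the pre-molt points, while the genes on either side lie at similar levels in both stages.

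The most abundant member was evm.TU.CM024166.1.166, with a length of 607 bases. Its levels were 176903, 150567 and 118997 FPKM in post-molt replicates 1, 2 and 3 and 281, 533 and 299.8 FPKM in pre-molt replicates 1, 2 and 3. It ranked first or second of all listed genes in each post-molt library, and between 276 and 398 in the pre-molt libraries, so it was also well detected before the molt, on 769 to 1190 fragments per library. The means were 148822 ± 28992 and 371 ± 140.3 FPKM (SD, n = 3), a ratio of 401, and the log2 fold change was 8.69 with an SE of 0.36.

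Gene 170 (evm.TU.CM024166.1.170, 324 bases) measured 45945, 56990 and 39160 FPKM in the post-molt and 29.4, 48.6 and 34.3 FPKM in the pre-molt libraries, replicates 1 to 3 in turn. The ratio of the means was 1265. Gene 169 (evm.TU.CM024166.1.169, 810 bases) measured 68852, 35058 and 11454 FPKM against 35.0, 58.0 and 38.4 FPKM. Post-molt replicate 1 was 6.01 times as high as replicate 3 in gene 169, but all 3 stood above every pre-molt library. Its ratio of means was 877, and 531 without post-molt replicate 1.

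The last gene of the stretch, evm.TU.CM024166.1.171 (228 bases), was lower than these but still at 2283, 3010.2 and 3393 FPKM in the post-molt libraries, against 1.95, 0 and 0.886 FPKM in the pre-molt libraries. Behind these values were 2640 fragments after the molt and 3 before it. The ratio of fragments, each scaled to library size, was 2805, with an exact binomial 95% interval of 959 to 13609. Such intervals pool the libraries of each stage and cover counting error only, not the spread among crabs. Reads without molecular identifiers are also not independent molecules, which the intervals do not take into account.

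The other two genes of the stretch were far less abundant. The first of it, evm.TU.CM024166.1.163 (786 bases), was at 297, 219 and 173 FPKM after the molt and at 0, 0.346 and 0 FPKM before it, which rests on 776 fragments against 1. The scaled ratio was 2473, with an exact interval of 443 to 97814. Gene 167 (evm.TU.CM024166.1.167, 312 bases) was at 117, 99.3 and 52.1 FPKM after the molt and at 0, 0 and 0.647 FPKM before it, on 120 fragments against 1. Its scaled ratio was 382, with an interval of 67.3 to 15231. Within 1 stretch, then, post-molt means ran from 89.3 FPKM for gene 167 to 148822 FPKM for its neighbour 166, so that genes of very unequal level lay side by side. The log2 fold changes were 7.67 (SE 0.32) for evm.TU.CM024166.1.163, 6.18 (SE 0.39) for gene 167, 9.43 (SE 0.59) for gene 169, 10.28 (SE 0.31) for gene 170 and 10.66 (SE 0.41) for evm.TU.CM024166.1.171, and the 6 genes had a median of 9.06, beside −0.09 over all tested genes.

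**Figure D2:**
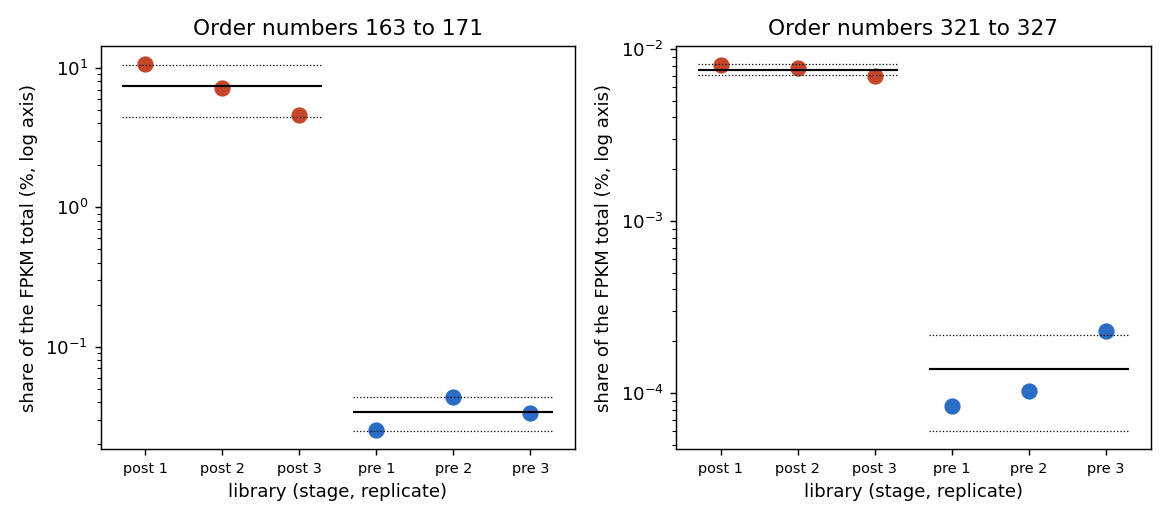
Share of the library's FPKM total held by each stretch, in percent on a log axis, with 1 point per library (orange, post-molt; blue, pre-molt), the group mean as a line and mean ± SD as dotted lines. The post-molt points of the first stretch lie at 4.61% to 10.6% and those of the second between 0.00695% and 0.00802%, with every pre-molt library lower in both.

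The makeup of the stretch differed among the post-molt crabs and was more even among the pre-molt crabs. Gene 166 held 60.1%, 61.2% and 68.7% of the summed FPKM in post-molt replicates 1, 2 and 3, and 80.9%, 83.3% and 80.2% in pre-molt replicates 1, 2 and 3. Gene 169 held 23.4%, 14.3% and 6.61% in post-molt and 10.1%, 9.07% and 10.3% in pre-molt. Gene 170 held 15.6%, 23.2% and 22.6% in post-molt and 8.47%, 7.60% and 9.17% in pre-molt. So genes 169 and 170 exchanged places as the next most abundant after 166, with 169 ahead only in post-molt replicate 1 among the post-molt crabs.

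The ratio of 169 to 170, which does not depend on how a library is scaled, shows this directly. It was 1.499, 0.615 and 0.292 in post-molt replicates 1, 2 and 3, a span of 5.12 times, and 1.19, 1.19 and 1.12 in pre-molt, a span of 1.07 times. The ratio of 170 to 166 was steadier after the molt, at 0.260, 0.379 and 0.329, and lay at 0.105, 0.0913 and 0.114 before it. Relative to gene 166, gene 170 was thus higher in every post-molt library than in any pre-molt library, whereas the ratio of 169 to 166 overlapped between the stages, at 0.389, 0.233 and 0.0963 in post-molt and 0.125, 0.109 and 0.128 in pre-molt. With 3 crabs per stage no test was made of these ratios. The pre-molt values rest on 43 to 58 fragments for gene 170 and 128 to 173 for gene 169.

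**Figure D3:**
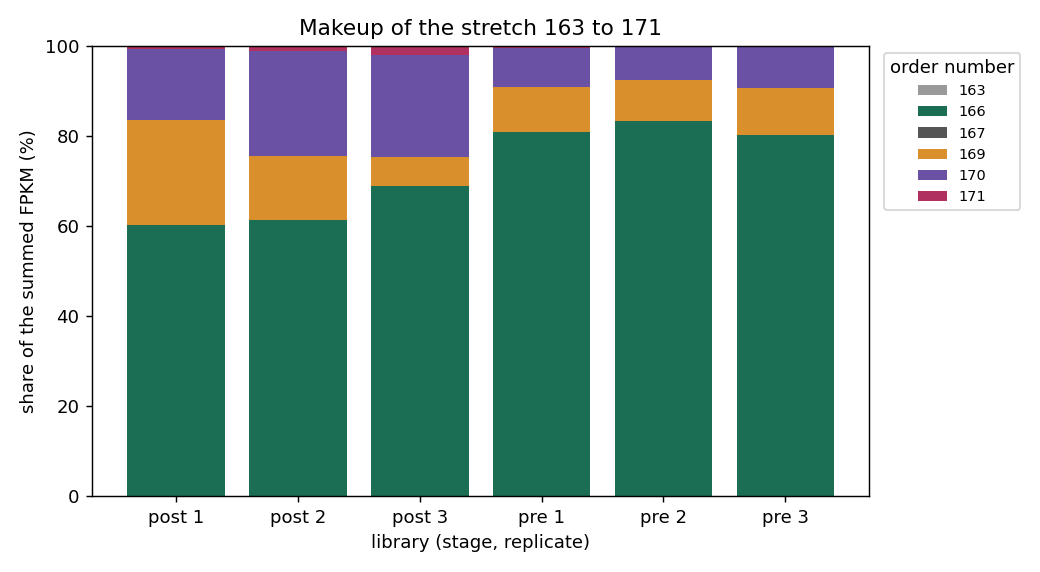
Share of the summed FPKM of the first stretch held by each of its 6 listed genes, as stacked bars from 0 to 100% for each library. Gene 166 (green) holds 60.1% to 68.7% in the post-molt bars and 80.2% to 83.3% in the pre-molt bars, and gene 169 (amber) runs from 6.61% to 23.4% among the post-molt crabs.

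Next to the first stretch, the listed genes were low in both stages. The nearest listed genes below it, evm.TU.CM024166.1.156 and evm.TU.CM024166.1.157, stayed at single or low double digits in both stages. Gene 156 was at 9.94, 6.83 and 8.48 FPKM against 8.92, 15.7 and 7.07 FPKM (post-molt replicates 1 to 3 against pre-molt replicates 1 to 3, here and below), and gene 157 at 4.96, 2.92 and 5.97 FPKM against 1.94, 4.74 and 1.76 FPKM. On the far side, evm.TU.CM024166.1.176 was at 3.38, 2.49 and 5.09 FPKM against 3.96, 8.09 and 9.02 FPKM. The next, evm.TU.CM024166.1.177, was at 2.14, 4.06 and 3.69 FPKM against 3.82, 2.63 and 7.72 FPKM. The stages overlapped in all 4 of these genes, and the numbers between these genes and the stretch were not listed, so where the change of level falls was not resolved.

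Of the 17 members of this window outside the stretch, none was called in either direction by limma on log2(FPKM + 1) at an adjusted p of 0.05 and a log2 fold change of 1, where 5.93% of all tested genes were called higher and 1.6% lower. At an unadjusted p of 0.05, 1 of them was lower. On the recovered fragments DESeq2 called none, and edgeR called 1, evm.TU.CM024166.1.152, as lower, where they called 1.65% and 2.52% of all tested genes lower. At a common FPKM sum 6 were called lower, as were 33.7% of all tested genes, among them genes 156, 176 and 177 at the edges, with log2 fold changes of −1.28, −1.56 and −1.15. On the deposited FPKM the 17 log2 fold changes ran from −0.99 to 0.83, with a median of −0.10, beside a median of −0.09 over all tested genes. They were mostly low, with medians of 3.24 to 5.09 FPKM in the post-molt and 4.27 to 4.89 FPKM in the pre-molt libraries. The exception was evm.TU.CM024166.1.190 at the far end, at 2201, 2729 and 3087 FPKM against 1439, 2313 and 984 FPKM, where the stages overlapped and the log2 fold change was 0.83 with an SE of 0.37. A high level in this window was therefore not tied to the stage in every gene.

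The second stretch was raised as well, but from near nothing to a modest level. Its 5 listed genes summed to 222, 266 and 261 FPKM in post-molt replicates 1, 2 and 3 and to 1.16, 1.51 and 2.56 FPKM in pre-molt replicates 1, 2 and 3. The means were 249.7 ± 24.0 and 1.74 ± 0.726 FPKM (SD, n = 3), a ratio of 143, which was 54.6 at a common FPKM sum. The pre-molt sums rest on 11 fragments in 3 libraries, the post-molt sums on 786. Its share of a library's summed FPKM averaged 0.00758% ± 0.000562 in post-molt, far less than that of the first stretch, and 0.000139% ± 7.87e-05 in pre-molt.

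**Figure D4:**
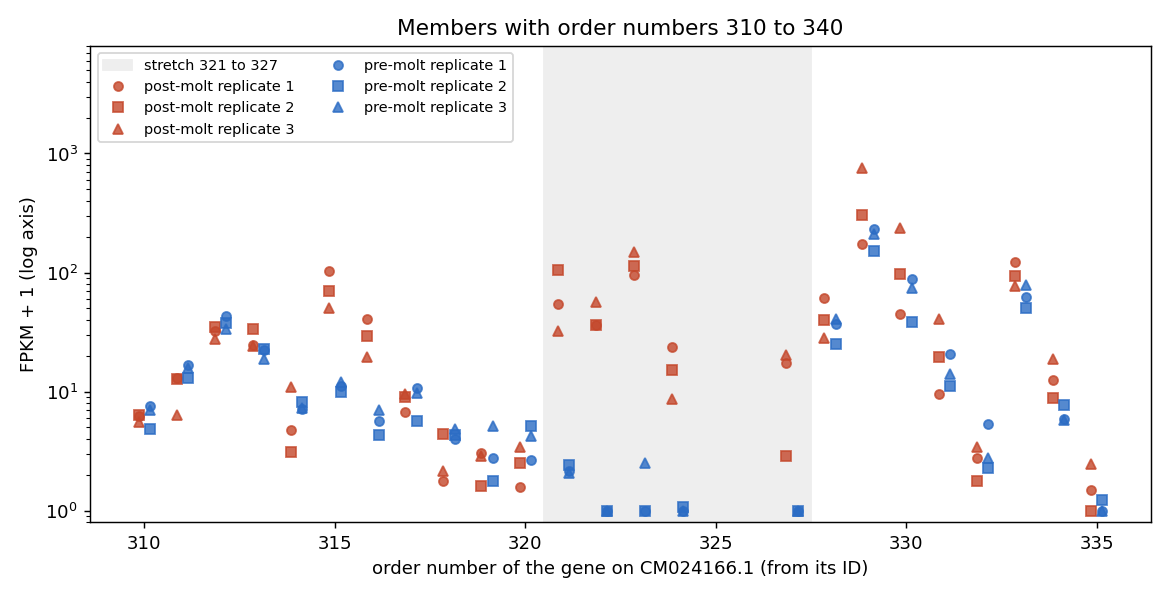
FPKM + 1 on a log axis for each listed gene with order numbers 310 to 340, plotted as in the former window (orange, post-molt; blue, pre-molt). The 5 genes of the grey stretch and genes 315 and 316 stand higher in post-molt by the widest gaps, whereas from 328 onward the stages overlap in every gene but 334, and gene 329 reaches 759 FPKM in 1 post-molt library.

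Gene 323 (evm.TU.CM024166.1.323, 540 bases) was the most abundant of this stretch, at 93.7, 112 and 147 FPKM against 0, 0 and 1.496 FPKM. All 4 of its pre-molt fragments came from replicate 3. The ratio of means was 236, and 157 without pre-molt replicate 1 or without pre-molt replicate 2. At the lower edge, evm.TU.CM024166.1.321 (381 bases) was at 53.7, 103 and 31.4 FPKM against 1.16, 1.43 and 1.06 FPKM, with 2 fragments behind each pre-molt value. Its scaled ratio of 51.5 had an exact interval of 22.8 to 144.

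Gene 322 (evm.TU.CM024166.1.322, 1088 bases) was at 35.5, 35.4 and 55.1 FPKM in post-molt, and 0 fragments were recovered in any pre-molt library. Set against 3 fragments over the pre-molt group, 0.210 FPKM, its post-molt mean was 200.1 times as high. This figure leaves out the error of the post-molt mean and is not a lower limit. Gene 324 (evm.TU.CM024166.1.324), the longest of the stretch at 3435 bases, was at 22.8, 14.1 and 7.72 FPKM against 0, 0.0791 and 0 FPKM, on 227 fragments against 1. The scaled ratio was 724 with an interval of 129 to 28701.

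At the upper edge, evm.TU.CM024166.1.327 (447 bases) rested on the fewest post-molt fragments of the stretch. It was at 16.5, 1.87 and 19.1 FPKM in post-molt, on 13, 1 and 10 fragments, with 0 fragments in every pre-molt library. Its post-molt mean was 24.5 times the level of 3 fragments over the pre-molt group, 0.511 FPKM. This figure too is not a lower limit, since it leaves out the error of the post-molt mean. Its log2 fold change was 3.33 with an SE of 0.69, and its call ended without post-molt replicate 1, where the log2 fold change was 2.93, and without any 1 of the pre-molt replicates, where it stayed at 3.33 because all were at 0. With a pseudocount of 5 in place of 1 the call also ended, at 1.61. The log2 fold changes of the other genes were 4.69 (SE 0.43) for evm.TU.CM024166.1.321, 5.39 (SE 0.31) for gene 322, 6.42 (SE 0.42) for gene 323 and 3.84 (SE 0.41) for gene 324, with a median of 4.69 over the 5. Where pre-molt libraries were at 0 or near it, these values depend on the pseudocount.

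Below this stretch the change stopped at once. The nearest listed genes were evm.TU.CM024166.1.319, at 2.06, 0.608 and 1.86 FPKM against 1.77, 0.789 and 4.11 FPKM, and evm.TU.CM024166.1.320, at 0.591, 1.52 and 2.45 FPKM against 1.67, 4.17 and 3.20 FPKM. The stages overlapped in both, though gene 320 was called lower at a common FPKM sum, with a log2 fold change of −1.17. Gene 320 and the first gene of the stretch carry consecutive numbers, so this edge falls between neighbouring models. The ratio of means was 0.504 for gene 320 and 51.6 for evm.TU.CM024166.1.321.

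Above it the edge also lay between consecutive numbers, evm.TU.CM024166.1.327 and gene 328, but here the outer genes were well expressed in both stages. Gene 328 (evm.TU.CM024166.1.328) was at 60.5, 38.6 and 27.3 FPKM against 36.2, 24.1 and 39.4 FPKM. Gene 329 (evm.TU.CM024166.1.329) was at 174, 301 and 759 FPKM against 229, 149 and 210.3 FPKM. The stages overlapped in both genes. The ratio of means of gene 329 was 2.09, and 1.21 without post-molt replicate 3.

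A separate raised pair lay 5 numbers below the stretch. Gene 315 (evm.TU.CM024166.1.315) was at 101, 68.8 and 49.1 FPKM against 10.2, 8.88 and 11.1 FPKM, a ratio of means of 7.24. Its neighbour evm.TU.CM024166.1.316 was at 39.8, 28.4 and 18.7 FPKM against 4.71, 3.36 and 5.95 FPKM, a ratio of 6.20. Neither overlapped between the stages, and the log2 fold changes were 2.68 (SE 0.33) and 2.36 (SE 0.36). The 4 genes between this pair and the stretch, 317 to 320, had means of 1.51 to 7.47 FPKM after and 2.22 to 7.67 FPKM before the molt and were not called, so the raised genes of this window did not form 1 unbroken run. The call of gene 316 ended at a common FPKM sum, where its log2 fold change was 1.07.

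Over both windows, 46 of the 47 members passed the filter of a mean FPKM of 0.5 and were tested. Member 335 did not pass. Called higher were 13 members, 6 in the window from 150 to 190 and 7 in that from 310 to 340, and 0 were called lower (1 was lower at an unadjusted p of 0.05, 1 was called lower by edgeR and 0 by DESeq2). The shares over all 17465 tested genes were 5.93% and 1.6%. Outside the windows, the same chromosome had 21 of 276 tested genes called higher and 8 lower. All 3 post-molt libraries lay above all 3 pre-molt libraries in 15 members, where this held for 14.2% of all tested genes, and the reverse held in 2 members, 181 and 182, and in 12.5% of all tested genes. Besides the 11 genes of the stretches, the 15 were 313, 315, 316 and 334. Gene 334 (evm.TU.CM024166.1.334) was at 11.5, 7.87 and 17.8 FPKM against 4.92, 6.76 and 4.75 FPKM, a ratio of means of 2.26, and was not called. Since the windows were picked for this contrast, nothing is read from these counts. Rescaling every library to a common FPKM sum shifted the all-gene median by −0.69 on the log2 scale, to −0.78. On that scale 12 members were called higher and 13 lower, beside 3.44% and 33.7% of all tested genes, and all 11 genes of the stretches were among those higher.

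The genes of the stretches had unequal lengths, a property the choice of members did not use directly. Those of the first stretch were 228 to 810 bases long with a median of 465.5, and those of the second were 381 to 3435 bases with a median of 540. The median was 1179 bases over the 15278 listed predicted genes and 1585 over the 36 other members. The lengths of called members come from the authors' table, and the other lengths were recovered from the values and can be a fraction of the true length. FPKM divides by length, so a given number of fragments counts for more in the short genes of the first stretch. Whether short members share sequence with copies elsewhere, which a count of uniquely aligned fragments would miss, was not tested.

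Spread among crabs within a stage was not what the members were chosen for. The coefficient of variation (SD as a percent of the mean) of the summed FPKM among post-molt crabs was 25.6% for the first stretch and 9.60% for the second. Without post-molt replicate 3 the former was 12.7%, and without post-molt replicate 1 the latter was 1.47%. At a common FPKM sum the former was 40.3% and as a share of all fragments 41.6%. As a share of all fragments the latter was 14.8%, and as fragments per kilobase over the library total, a scale chosen after seeing the data, it was 2.23%. Among pre-molt crabs these values were 35.6% and 41.7%, the latter on few fragments. In the first stretch post-molt replicate 1 was highest and replicate 3 lowest, by summed FPKM and by share alike. In the second stretch replicate 1 was lowest by summed FPKM but highest by share of the FPKM total, at 0.00802% against 0.00778% and 0.00695%, so the order of the crabs there turned with the scaling.

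**Figure D5:**
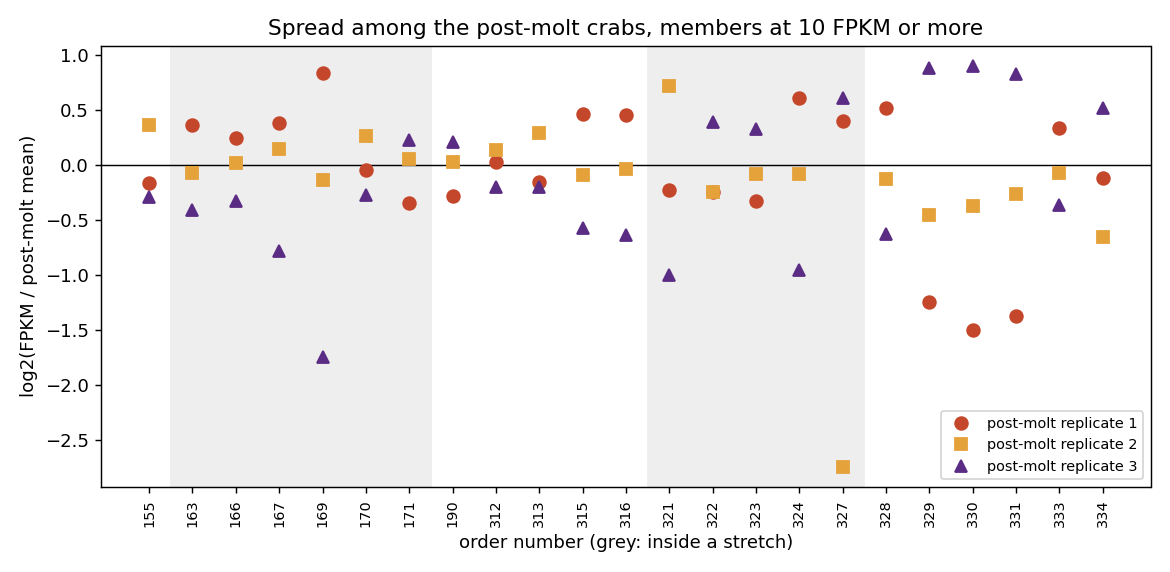
Deviation of each post-molt library from the post-molt mean, as log2 of FPKM over that mean, for the members with a post-molt mean of 10 FPKM or more, in order of their numbers (grey, inside a stretch; colours and shapes give the replicate). Replicate 3 (purple) is lowest in 5 of the 6 genes of the first stretch and highest in genes 329 to 331, where replicate 1 is lowest.

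Gene by gene, 166, 170 and evm.TU.CM024166.1.171 had post-molt coefficients of variation of 19.5%, 19.0% and 19.5%, below the median of 30.6% over the 4925 tested genes with a post-molt mean of 10 FPKM or more. Gene 169, at 75.0%, was above 93.2% of those genes. In the second stretch the values ran from 23.3% for gene 323 to 74.4% for evm.TU.CM024166.1.327, and evm.TU.CM024166.1.321 was at 58.5%. The genes of the second stretch, whose summed FPKM varied less than the FPKM of any of them, differed in which crab was highest. Among them, evm.TU.CM024166.1.321 was highest in replicate 2, gene 324 in replicate 1, and genes 322 and 323 in replicate 3.

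Members outside the stretches could vary as much. Genes 329, 330 (evm.TU.CM024166.1.330) and 331 (evm.TU.CM024166.1.331) had post-molt coefficients of variation of 74.8%, 78.3% and 71.0%, each with replicate 3 highest and replicate 1 lowest. Gene 330 was at 44.1, 96.7 and 233 FPKM against 86.9, 37.6 and 73.1 FPKM, and gene 331 at 8.56, 18.5 and 39.4 FPKM against 19.8, 10.2 and 13.2 FPKM. The ratio of 330 to 329 nevertheless stayed at 0.253, 0.321 and 0.308 among the post-molt crabs, a span of 1.27 times, while the level of gene 329 itself spanned 4.36 times. In the pre-molt libraries this ratio was 0.379, 0.251 and 0.347, a span of 1.51 times, about that of gene 329 itself at 1.53 times. These 3 neighbours moved together from crab to crab after the molt without a called difference between the stages. Steady post-molt ratios were not particular to them, since that of 316 to 328 spanned 1.12 times. The raised pair 315 and 316 also moved together after the molt, highest in replicate 1 and lowest in replicate 3. The ratio of 316 to 315 was 0.394, 0.412 and 0.381 in post-molt and 0.460, 0.378 and 0.534 in pre-molt. This was not particular to the pair. The ratio of 315 to gene 328, which was not called, was as steady in post-molt, at 1.67, 1.78 and 1.80.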

How the data were processed

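Muscle RNA of 3 post-molt and 3 pre-molt crabs was analysed. Per the submitters' processing notes and the study's methods, the authors aligned reads with HISAT2 2.0.5 and counted uniquely aligned fragments with featureCounts 1.5.0-p3. The strand setting was not stated. Deposited by the authors were FPKM for 18729 genes, and a comparison table of 1684 genes with a normalized signal per library (counts divided by a size factor) and gene lengths. Its log2 fold changes and p-values, which the authors deposited with it, and its group means were not used. The FPKM columns carry another tissue prefix than the sample titles and were assigned by stage letter and number. After multiplication by gene length, each was proportional to the muscle column of the same letter and number.

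Fragments were recovered from FPKM as the smallest length giving whole numbers within 0.001 (100% of values, known lengths used where deposited). Of 1684 known lengths 98.6% were found exactly, as were 98.6% of 1496 simulated ones. The genome-wide fit was limma 3.58.1 (R 4.3.3) with an intensity trend on log2(FPKM + 1), which understates changes of low genes, on the 17465 genes that averaged at least 0.5 FPKM, with stage as its only term. A call needed an adjusted p (Benjamini-Hochberg) of 0.05 and an absolute log2 fold change of 1. On simulated data it called 2%, 4%, 50% and 68% of 50 genes changed 2-, 4-, 8- and 16-fold, with 13 false calls. Alternatives were edgeR 4.0.16 and DESeq2 1.42.0 on recovered fragments, pseudocounts of 0.1 and 5, filters, scalings, a replicate block and leaving out each library. Pseudocounts, thresholds and alternatives, like the members, were chosen with earlier results of these data known. Named are all genes of both stretches, the 2 listed genes on either side of each, and other called members. Genes 152, 181, 182, 190, 313, 317, 318, 330, 331, 334 and 335 were named after their values were seen. RefSeq gene IDs matched none of the members, and no sequences are shown.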

Additional observations from a re-analysis of the deposited data

How the results depend on the processing

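The number of members called was 13 with the settings used and 12 to 14 under all alternatives but 1. With every library at a common FPKM sum it was 25. For the first stretch, the post-molt share was 4.24% of recovered fragments in place of 7.47% of FPKM. Its ratio of summed FPKM was 219 at a common sum, 224 by share of all fragments and 232 by fragments per kilobase over the library total (a scale chosen after seeing the data). Its spread among post-molt crabs was 40.3% at a common sum and 41.6% by share of all fragments. For the second stretch, the share was 0.00574% by fragments and 0.0103% of a total without the 10 most abundant genes. Its ratio was 54.6 at a common sum, 95.4 by share of all fragments, 58.7 by fragments per kilobase and 173 from group medians, and its spread was 2.23% by fragments per kilobase. Leaving out 1 library gave 12 to 13 called members. For the first stretch it gave a share of 5.90% to 8.90%, a spread of 12.7% to 36.6% and a ratio of 462 to 659.5. For the second it gave a share of 0.00736% to 0.00790%, a spread of 1.47% to 12.7% and a ratio of 123 to 187. Over all genes 1316 were called, 6490 at a common sum, 783 without pre-molt replicate 1 and 803 without pre-molt replicate 3. The causes of these changes were not tested, apart from the rescaling, which moves every gene. Of the log2 fold changes of the 21 genes that the naming rule gave, 326 values kept their call, 6 lost it and 4 gained one. Among the other members named, 152, 181, 182, 317 and 318 gained a call as lower at a common sum, 152 also by edgeR.

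Equal replicate numbers in the stages gave no sign of pairs, since same-numbered libraries deviated with correlations of −0.03, −0.03 and −0.05. With 3 libraries per stage these values cannot exclude a weak pairing. With the replicate block 13 members were called, and 1003 of all genes. Within the stretches, depth limits the pre-molt values of evm.TU.CM024166.1.163, evm.TU.CM024166.1.171, evm.TU.CM024166.1.327 and genes 167 and 322 to 324, each with 0 to 4 fragments in all. It also limits those of evm.TU.CM024166.1.321, with 6 fragments in all.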
